A study of Mus musculus with 9 samples.

Results

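Tailbud mesoderm (TBM) was compared with presomitic mesoderm (PSM) in mouse embryos at E10.5, to describe which genes change as cells leave the tailbud and become the tissue that will be cut into somites. The comparison used the 3 TBM arrays and the 3 PSM arrays of a series of 9, which also holds 3 arrays of the chordoneural hinge (CNH), the neighbouring progenitor region. Each region was microdissected from many embryos and the pieces were pooled, so an array averages over embryos and over every cell type in a piece. The methods name CD1 and C57Bl/6J females without saying which gave which sample. RNA was amplified, labelled and hybridised to Illumina Ref6v2 BeadArrays. The probes compared were those with a detection p-value under 0.01 on all 3 arrays of TBM or of PSM, which kept 11995 of the 45281 probes on the array, for 7591 of its 19057 named genes.

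The tailbud holds the last progenitors of the trunk and tail, which are kept in an immature state by FGF and WNT signals and by enzymes that break down retinoic acid. Mesoderm that leaves it enters the presomitic mesoderm, where FGF and WNT activity fade towards the front and a clock of oscillating Notch, WNT and FGF targets runs. At the front end Mesp genes and their partners set the next segment border, and the cells turn on somite genes. TBM is thus the younger tissue and PSM the older one on this path.

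Values are log2 intensities after background correction and quantile normalization, and a fold change is TBM minus PSM on that scale, so a positive one means a higher level in TBM. The study describes 2 biological replicates and 1 technical replicate for each region without naming the technical one. The fits treat the 3 arrays of a region as independent, so that the p-values are too small if 1 of them is technical. Replicate 3 stood apart in both regions. Its TBM array lay about as close to its PSM array (distance 53.1) as did those of replicates 1 and 2 (57.1 each), while arrays of 1 region lay 115 to 124 from replicate 3 and about 22.6 apart for replicates 1 and 2. Median signal was 76.8 to 80.4 on the TBM and PSM arrays of replicates 1 and 2, and 65.6 on the TBM array and 63.0 on the PSM array of replicate 3. The replicate number was therefore a block in the fit, and the number of calls without it is given with most gene groups. Of the genes that mark the labelled tissues, Fgf8, Wnt3a, Tbx6, Dll1 and Dll3 were detected on all 6 arrays. Hes7 was detected on 2 arrays of each region, and Lfng on 0 of the 6. Mesp2 was detected on 0 TBM arrays and 2 PSM arrays, Uncx on 0 and 2, and Pax3 on 0 of the 6, so these genes were not tested. No probe is named for T (Brachyury) or Msgn1.

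By limma, 1158 of the 11995 probes (9.65%) passed an adjusted p of 0.05 with a change of at least 1.5-fold, which is what called means here. Of these, 654 (5.45%) were higher and 504 (4.2%) lower in TBM. Taking the brightest probe for each gene, 458 of the 7591 genes (6.03%) were higher and 353 (4.65%) lower in TBM. At least 2-fold changes were called for 187 higher and 182 lower genes, and at least 4-fold changes for 43 and 41. The direction was the same in all 3 replicate numbers for 810 of the 811 called genes. The 3 TBM values and the 3 PSM values did not overlap for 545 of the called genes, against 13.4% of all genes tested. Among the 190 called genes with several tested probes, every probe was called the same way for 138, and no gene (0) had a probe called the opposite way.

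**Figure D1:**
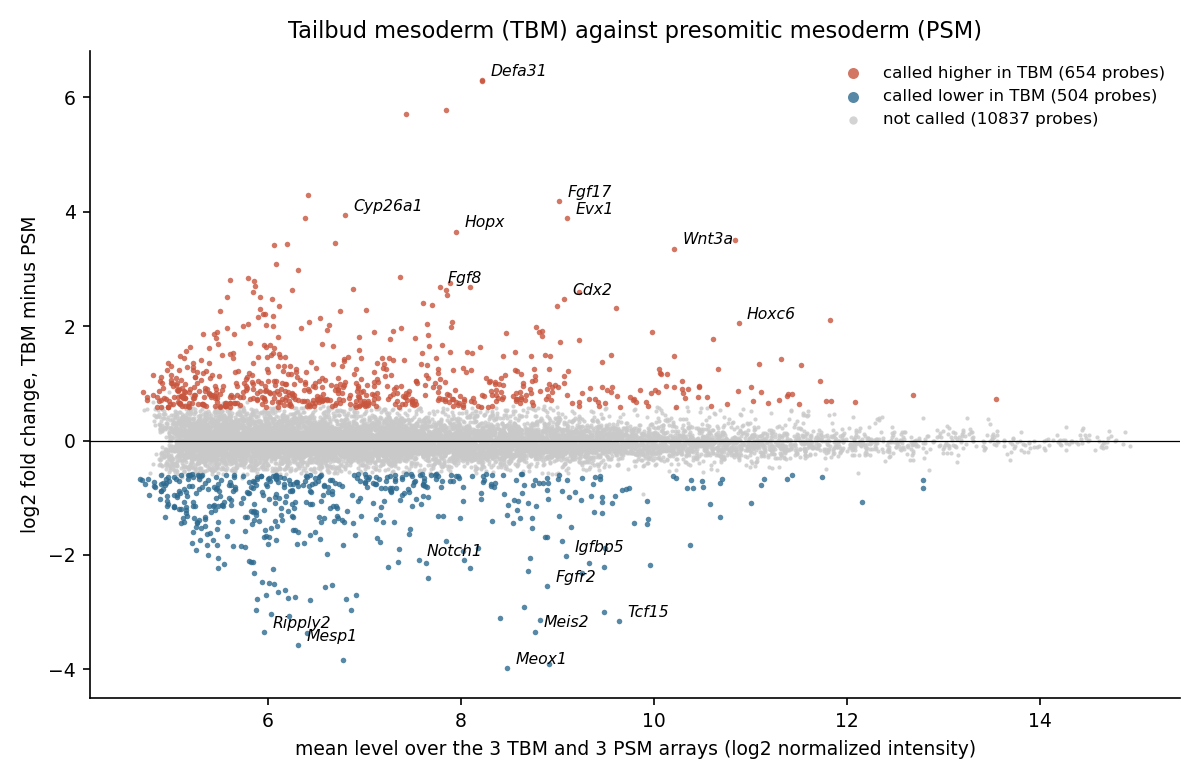
Each point is 1 of the 11995 probes tested, with its mean log2 normalized intensity over the 3 TBM and 3 PSM arrays on the x axis and its log2 fold change (TBM minus PSM) on the y axis. The 654 probes called higher in TBM are red and the 504 called lower are blue, and the extremes are Defa31 at 6.30 and Meox1 at -3.98.

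The genes that keep tailbud progenitors were mostly higher in TBM. Of 28 axial progenitor and tailbud factors, 27 had a named probe and 19 were tested, of which 15 were called higher and 1 lower, against 6.03% and 4.65% of all genes. Their median log2 fold change was 2.37, with -0.03 over all genes tested. Among the 14 detected on all 6 arrays, where the detection filter cannot favour a direction, 12 were higher and 0 lower. Without the replicate block 11 were still called higher, and 10 with the authors' normalized values. This list and those below were chosen with earlier results of these data known, so their counts are descriptions. The shares of all genes, 6.03% higher and 4.65% lower, are also the base for the list counts below.

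Ligands and transcription factors both contributed. Fgf17, a ligand of the FGF8 subfamily, had levels of 11.07, 11.01 and 11.26 on the TBM arrays, against 6.45, 6.57 and 7.74 on the PSM arrays. Its log2 fold change was 4.19 ± 0.20 (SE, adjusted p = 8.67e-07, both probes called). Fgf8 itself stood at 8.78, 8.80 and 9.78 in TBM and at 5.80, 6.12 and 7.39 in PSM. For both ligands every TBM array lay above every PSM array, and replicate 3 was the highest of its region. The Fgf8 difference was 2.68 ± 0.13 (adjusted p = 1.07e-06). Fgf3, another FGF ligand of the tailbud, differed by 1.15. Wnt3a, the canonical WNT ligand needed to make paraxial mesoderm, measured 11.90, 12.05 and 11.73 in TBM, against 8.29, 8.24 and 9.08 in PSM. This 3.36 difference on the log2 scale was a 10.2-fold change (adjusted p = 5.74e-06). Wnt5b, a WNT ligand of the non-canonical kind, was 5.17-fold higher in TBM. Wnt8a, which is in the same list, went the other way. It was not detected on any TBM array and was detected on all 3 PSM arrays, and its level was at least 1.81-fold lower in TBM.

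The transcription factors of the tailbud moved with these ligands. Evx1, a homeobox gene of the primitive streak and tailbud, had levels of 11.19, 11.14 and 10.80 in TBM and 6.89, 6.98 and 7.59 in PSM, a 14.8-fold difference. Cdx2 and Cdx4, caudal homeobox genes that act upstream of posterior Hox genes, differed by 2.47 each. Cdx4 was detected on 1 of the 3 PSM arrays. Mixl1, a homeobox gene of the streak, went undetected on the PSM arrays, and its TBM level was at least 4.74-fold higher. Sp5 and Sp8, zinc finger factors downstream of WNT, differed by 1.77 and 1.03. Greb1, a gene first known as an oestrogen target, measured 10.67, 10.49 and 10.40 in TBM, against 7.88, 7.86 and 8.03 in PSM. The 3 TBM arrays were all far above the 3 PSM arrays, by 6.06-fold on average (adjusted p = 8.69e-07), and both probes of Greb1 were called. Members that were not called include Nkx1-2, a homeobox gene of axial progenitors (0.79, adjusted p = 0.0542), and Sall4, a zinc finger gene of pluripotent cells (-0.25, adjusted p = 0.353). Sall4 shows how far replicate 3 could lie from the others, with 10.56, 10.42 and 6.14 in TBM and 10.44, 10.63 and 6.79 in PSM.

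**Figure D2:**
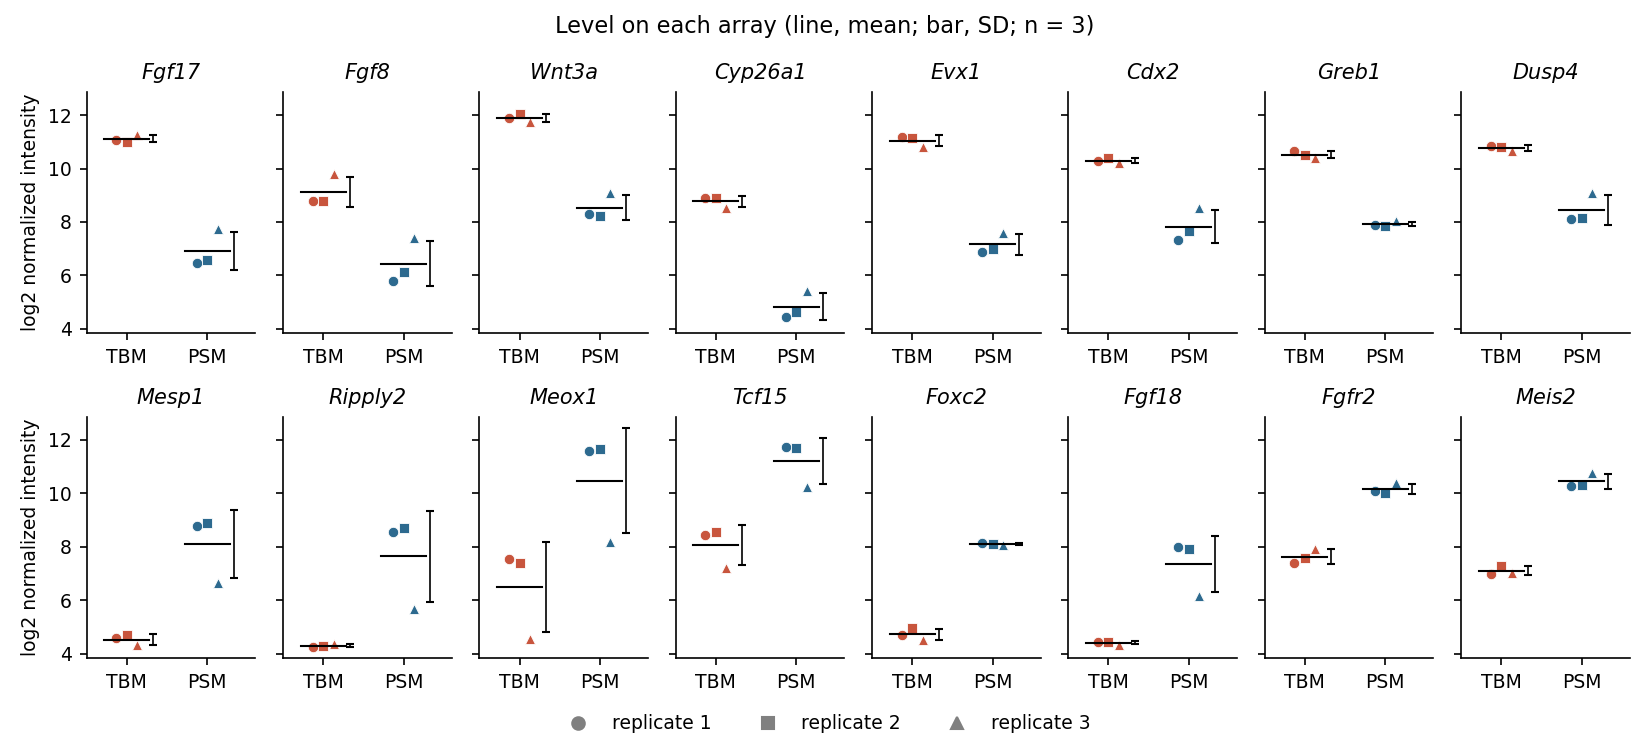
Log2 normalized intensity of 16 genes on each array (circle, square and triangle for replicates 1, 2 and 3), with the mean as a line and the SD as a bar (n = 3), TBM in red and PSM in blue. The 8 genes of the upper row lie higher on every TBM array and the 8 of the lower row lie lower on every TBM array.

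The genes of segment determination were lower in TBM. Of 19 members, 12 were tested, 11 were called lower and 1 higher, with a median log2 fold change of -2.58. All 4 of those detected on all 6 arrays (Nrarp, Aldh1a2, Foxc1 and Tcf15) were lower. Mesp1, Ripply1, Ripply2 and Cer1 passed the detection filter through PSM alone, which favours a lower value in TBM. Without the block 7 of the 12 were called lower, and with the authors' normalized values 8. Mesp1, the bHLH factor switched on in the next segment to form, measured 4.57, 4.70 and 4.31 in TBM, against 8.78, 8.89 and 6.64 in PSM. The TBM values were all below detection, so the change is a bound, at least 9.13-fold lower in TBM (adjusted p = 8.86e-05). Ripply2, the co-repressor that ends Tbx6 activity at the border, stood at 4.26, 4.27 and 4.35 in TBM and at 8.56, 8.69 and 5.66 in PSM, at least 6.61-fold lower in TBM. On replicate 3 both genes were dimmer in PSM than on the other PSM arrays, and still above every TBM array. The adjusted p of Ripply2 was 0.00185, and its call was lost without the block. Ripply1 was at least 1.88-fold lower in TBM. Ripply3 was the member called higher, at least 1.61-fold, with no PSM array detecting it. Cer1, a secreted antagonist of Nodal and BMP made by the forming segment, differed by -3.07 (both probes).

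Genes of the early somite were mostly lower in TBM, in a list that overlaps the one before. Meox1, Meox2, Tcf15, Foxc1 and Foxc2 are counted in both. Meox1, a homeobox gene needed for somite patterning, measured 7.54, 7.37 and 4.56 in TBM, against 11.59, 11.64 and 8.19 in PSM. Its log2 fold change of -3.98 ± 0.15 was the most negative of all genes tested (adjusted p = 2.49e-07). Its TBM and PSM values did not overlap, although replicate 3 was the lowest in both regions, and the call was lost without the block. Tcf15 (paraxis), the bHLH factor of epithelial somites, stood at 8.42, 8.55 and 7.19 in TBM and at 11.73, 11.70 and 10.23 in PSM, a difference of -3.16. Foxc2, a forkhead factor needed for somites, was 10.3-fold lower in TBM (4.70, 4.95 and 4.52, against 8.13, 8.09 and 8.06 in PSM). Its relative Foxc1 differed by -2.09. Msc (musculin), a bHLH repressor of muscle precursors, differed by -3.84, with 4.93, 4.85 and 4.80 in TBM and 8.77, 8.71 and 8.63 in PSM. Its PSM arrays were nearly equal, and only 1 TBM array detected it. Of 33 genes of somites and their derivatives, 9 were tested, 7 were called lower and 1 (Bgn, a matrix proteoglycan) higher in TBM. Meox1, Meox2, Foxc2 and Msc passed the detection filter through PSM alone, which favours a lower value in TBM. Only 5 members were detected on every array of both regions, and of these 3 were lower and 1 higher. Without the block 5 of the 7 lower genes were called. Twist1, a mesenchymal bHLH factor, was among them at -1.56.

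The tested genes of a list for presomitic mesoderm identity did not shift together. Msgn1, Hes7, Lfng, Pcdh8, Dact1 and Itm2a, also in that list, were not tested. Of 13 members, 7 were tested, 2 called higher and 2 lower in TBM. Tbx6, the T-box factor of the whole presomitic mesoderm, measured 10.17, 10.12 and 9.89 in TBM, against 9.50, 9.58 and 9.49 in PSM. The TBM arrays were all higher, but the 1.45-fold difference stayed under the 1.5-fold limit (adjusted p = 0.00804). Rspo3, an R-spondin that strengthens WNT signals, was 2.80-fold higher in TBM, and Cited1, a transcriptional co-regulator, 2.02-fold. Fgf18, an FGF ligand, went the opposite way from Fgf8 and Fgf17. It measured 4.43, 4.44 and 4.34 in TBM, below detection on each array, against 7.999, 7.93 and 6.15 in PSM, and was at least 5.46-fold lower in TBM (adjusted p = 1.59e-04). Pcdh19, a protocadherin, differed by -2.62.

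The Notch list held changes in both directions. Notch1, the receptor, had levels of 6.07, 6.21 and 7.28 in TBM and of 8.53, 8.58 and 8.71 in PSM. No TBM array reached the lowest PSM array, and the difference was -2.08 ± 0.19 (adjusted p = 5.74e-05). Maml2, a co-activator of the Notch complex, differed by -2.27, and the Notch targets Hey1 and Nrarp by -0.98 and -0.82. The ligands Dll1 and Dll3 were not called (-0.44, adjusted p = 0.064, and -0.43, adjusted p = 0.124). Notch4, the receptor known from endothelial cells, was higher in TBM by 0.83, with 10.37, 10.50 and 11.29 against 9.69, 9.66 and 10.32 in PSM, and endothelial markers as a list were higher in TBM too. The oscillating target Hes1 measured 7.72, 8.13 and 6.16 in TBM and 7.11, 7.18 and 6.14 in PSM, and the groups overlapped (adjusted p = 0.194). In all, 2 of 14 tested members were higher and 4 lower in TBM. Without the block 0 were called higher and 2 lower.

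An FGF receptor was lower in TBM and several FGF targets were higher. Fgfr2, an FGF receptor, measured 7.38, 7.57 and 7.92 in TBM, against 10.09, 10.03 and 10.38 in PSM. Every TBM array was lower, by 5.82-fold on average (adjusted p = 8.67e-07). Fgfrl1, a receptor with no kinase domain, differed by -0.34 and was not called, and the other 3 members of the receptor list were not tested. Of 11 tested targets and feedback genes, 5 were higher and 1 lower in TBM. Dusp4, a phosphatase that dampens ERK, measured 10.85, 10.80 and 10.66 in TBM, against 8.10, 8.13 and 9.10 in PSM, and all 3 of its probes were called (2.32). Il17rd (Sef), an inhibitor of FGF signalling, differed by 1.77, and Etv4, an ETS factor downstream of FGF, by 1.76. Etv5, its relative, was near the limit (0.81, adjusted p = 0.0493) and lost its call in 19 of 26 alternative settings. Dusp6, another ERK phosphatase, differed by 0.53 and was not called. Egr1, an immediate early gene, was the one called lower (-1.31). The median of the 11 genes was 0.80 and 0.78 in replicates 1 and 2, and 0.06 in replicate 3. Without the block 2 of the 5 higher genes were called.

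WNT ligands were divided between the regions. Among 20 tested ligands and receptors, 6 were called higher and 8 lower in TBM. The higher ones included Wnt3a, Wnt5b and Wnt10a (1.44), the polarity co-receptor Ptk7 (1.07) and the receptor Fzd10 (0.74, all 3 probes). The lower ones were Wnt4, Wnt6, Wnt7a, Wnt7b, Wnt8a and Wnt16, and the receptors Fzd2 (-1.81) and Fzd7 (-0.69). Wnt16 measured 5.02, 4.49 and 4.58 in TBM, against 7.17, 7.25 and 7.11 in PSM, and both probes were called (-2.48). All 3 PSM arrays detected it and 1 TBM array did. Of the lower ones, Wnt4, Wnt7a, Wnt8a and Wnt16 were not detected on all 6 arrays. Among the 15 members that were, 5 were higher and 4 lower. Without the block 3 of the 20 were called higher and 4 lower, and with the authors' normalized values 4 were called higher and 0 lower. Wnt6 is also a marker of surface ectoderm, and genes of that tissue were lower in TBM too.

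Of 17 tested WNT targets, inhibitors and effectors, 7 were higher and 3 lower in TBM. The higher ones included some feedback inhibitors. Other inhibitors were not higher, as Nkd1 (-0.10) and Nkd2 (-0.41) were not called, and Sfrp1 and Cer1 (-3.07) were called lower. Notum, an enzyme that inactivates WNT ligands, measured 6.94, 7.24 and 6.06 in TBM and 4.88, 4.95 and 4.40 in PSM, a 4.01-fold difference. Its TBM arrays were all higher, and 1 PSM array detected it. Apcdd1, a WNT inhibitor at the membrane, differed by 1.54, and Axin2, the standard reporter of WNT activity, by 0.89, with 8.77, 8.92 and 8.72 in TBM against 7.87, 7.83 and 8.05 in PSM. Tcf7l1, the TCF family member that mostly represses, was the other lower member (-1.13). Ccnd1 (cyclin D1) was higher by 0.69 in all 3 probes. The median of the list was 0.01. Without the block 2 genes were called higher and 1 lower.

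Promoter sequences, from RefSeq on GRCm38.p6, were searched in windows from 250 bases before to 50 after the start of each gene, on both strands. The letters searched were CTTTGA for TCF/LEF, TGGGAA for RBPJ, AGGTGTGA for the T-box, CCGGAAG for ETS factors, and the E-boxes CAGCTG and CACGTG, and no matches overlap in the windows printed here. Windows were found for 355 of the 458 genes higher and 266 of the 353 genes lower in TBM, and for 6208 of the 7591 tested. The TCF/LEF letters were in 12.7% of the windows of genes higher in TBM, in 9.09% of those of genes lower in TBM and in 11.5% of those of all tested genes. The RBPJ letters were in 23.0%, 23.0% and 22.6%. The ETS letters were in 5.04% and 3.48% of the windows of genes higher and lower in TBM, against 18.9% for all tested genes and 8.86% for all windows of the table. The T-box letters were rare, in 1.61% and 0.802% of windows against 0.806% for all tested genes. CAGCTG was in 20.6% and 18.2% against 14.5%, and CACGTG in 7.46% and 7.75% against 10.3%. These shares are a description, and a match of letters does not show that a factor binds.

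The windows of 4 genes are shown as they hold letters of the pathways above, 2 from genes higher in TBM (Sp5 and Evx1) and 2 from genes lower in TBM (Mesp1 and Meis2), and they were chosen after the matches were known. Each runs 5′ to 3′ on the gene's strand, and capitals mark the matches. Sp5 (chr2:70474673-70474972, + strand) has TCF/LEF letters starting at -204 and -104 from the gene's start and RBPJ letters in reverse at -66 and -17. Evx1 (chr6:52313248-52313547, + strand) has RBPJ letters in reverse at -95. Mesp1 (chr7:79793541-79793840, - strand) has TCF/LEF letters at -72 (in reverse) and -31, and T-box letters in reverse at 5. Meis2 (chr2:116064570-116064869, - strand) has TCF/LEF letters at -109.
Sp5: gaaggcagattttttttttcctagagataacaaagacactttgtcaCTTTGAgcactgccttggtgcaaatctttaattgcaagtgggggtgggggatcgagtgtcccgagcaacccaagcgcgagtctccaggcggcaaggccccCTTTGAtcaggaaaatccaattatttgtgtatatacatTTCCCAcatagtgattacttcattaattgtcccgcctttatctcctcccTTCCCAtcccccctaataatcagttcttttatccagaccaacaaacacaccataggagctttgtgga
Evx1: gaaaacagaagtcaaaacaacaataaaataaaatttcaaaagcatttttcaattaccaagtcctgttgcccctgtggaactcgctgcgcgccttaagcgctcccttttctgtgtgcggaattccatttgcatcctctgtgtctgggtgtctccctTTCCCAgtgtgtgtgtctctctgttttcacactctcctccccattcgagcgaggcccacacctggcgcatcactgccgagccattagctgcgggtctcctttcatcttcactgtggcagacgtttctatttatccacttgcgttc
Mesp1: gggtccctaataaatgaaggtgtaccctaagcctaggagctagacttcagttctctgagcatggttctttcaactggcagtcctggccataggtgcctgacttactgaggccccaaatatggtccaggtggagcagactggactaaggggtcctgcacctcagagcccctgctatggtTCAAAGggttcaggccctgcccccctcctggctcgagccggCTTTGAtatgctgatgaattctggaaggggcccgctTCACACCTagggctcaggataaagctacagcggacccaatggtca
Meis2: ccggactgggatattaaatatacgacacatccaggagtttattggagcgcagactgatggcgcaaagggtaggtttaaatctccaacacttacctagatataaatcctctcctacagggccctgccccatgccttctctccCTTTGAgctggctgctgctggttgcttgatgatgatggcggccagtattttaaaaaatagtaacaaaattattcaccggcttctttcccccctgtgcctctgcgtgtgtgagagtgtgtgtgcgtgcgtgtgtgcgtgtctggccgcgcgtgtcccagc

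Retinoic acid genes showed the opposing enzymes on opposite sides. Cyp26a1, which breaks retinoic acid down, measured 8.90, 8.89 and 8.53 in TBM, against 4.45, 4.63 and 5.43 in PSM. It was 15.3-fold higher in TBM (adjusted p = 1.17e-05), and 1 PSM array detected it. Aldh1a2, which makes retinoic acid, measured 5.03, 5.53 and 4.97 in TBM and 7.05, 7.13 and 6.39 in PSM. It was lower on every TBM array, by 3.20-fold (both probes, adjusted p = 1.83e-04), and its call was lost with the authors' normalized values. The binding proteins Crabp1 and Crabp2 differed by -1.53 and 0.78. Of the 8 tested members of the list, 2 were higher and 3 lower in TBM, and without the block 1 and 2.

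Hox genes of the trunk and tail were higher in TBM and those of the head and neck mostly did not pass the test. Hox genes are numbered by their order in 4 clusters, and higher numbers are expressed later and farther back. Of 9 tested genes of groups 6 to 9, 8 were higher (median 1.06), and of 7 tested genes of groups 10 to 13, 5 were higher (median 0.80). Of 10 tested genes of groups 1 to 5, 1 was higher (Hoxb4, 0.73) and the median was 0.26. No Hox gene was lower (0 of 26). The largest differences were those of Hoxc6 (2.06 ± 0.19) and Hoxa7 (1.89 ± 0.13). Hoxc6 measured 11.74, 11.71 and 12.28 in TBM, against 9.34, 9.40 and 10.82 in PSM. Hoxc10 differed by 1.48, with 10.50, 10.67 and 7.84 in TBM and 8.90, 8.84 and 6.83 in PSM. Its values overlapped between the regions because replicate 3 was low in both, while each TBM array was above the PSM array of its own number. The genes of these groups that were not called were Hoxa9 (0.40), Hoxc12 (0.59) and Hoxa13 (0.10). Without the block 1 of the 8 trunk genes and 0 of the 5 posterior genes were called, and with the authors' normalized values 5 and 3.

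**Figure D3:**
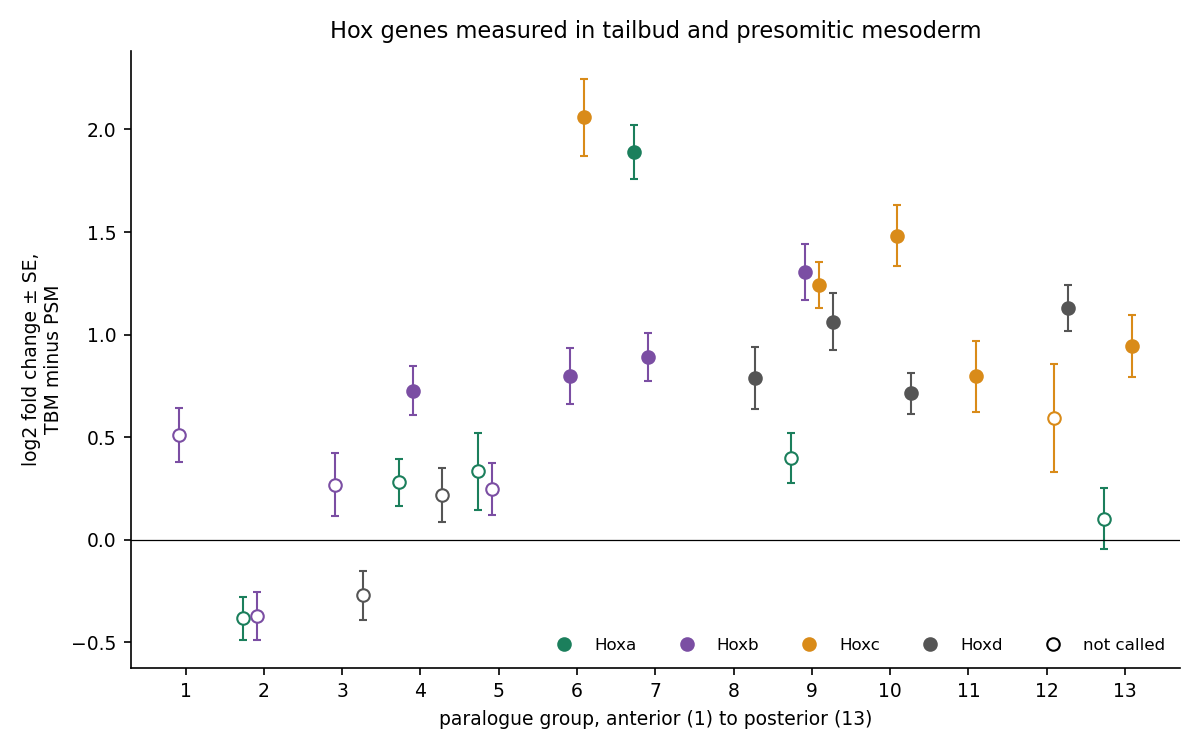
Log2 fold change (TBM minus PSM) with its SE for each of the 26 Hox genes tested, by paralogue group on the x axis and coloured by cluster, filled where called. Groups 6 to 9 hold 8 called genes of 9, groups 10 to 13 hold 5 of 7, and groups 1 to 5 hold 1 of 10.

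The TALE homeobox genes, which code for partners of Hox proteins, held some of the largest differences in the other direction. Meis2 measured 6.99, 7.29 and 7.03 in TBM, against 10.27, 10.31 and 10.75 in PSM, and all 3 probes were called (-3.34 ± 0.16, adjusted p = 8.67e-07). Meis1 measured 6.25, 6.52 and 7.78 in TBM, against 9.65, 9.58 and 10.64 in PSM (-3.11, both probes). For both genes the lowest PSM array was above the highest TBM array. Pknox2 differed by -1.59. The other 4 tested members, Tgif1, Tgif2, Pknox1 and Pbx2, lay between -0.24 and 0.11 and were not called.

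Secreted factors of other pathways also differed. Cxcl12, the chemokine that binds Cxcr4, measured 7.42, 7.63 and 5.84 in TBM, against 11.43, 11.50 and 9.65 in PSM. It was 14.9-fold lower in TBM (both probes, adjusted p = 2.07e-07), with no overlap between the regions, and its call was lost without the block. Its receptor Cxcr4 differed by -0.14 (adjusted p = 0.507). Of 10 tested genes of the insulin-like growth factor axis, 4 were higher and 3 lower in TBM. Igfbp5, a secreted binding protein, was 4.07-fold lower (all 3 probes), while Igfbp7 was 3.27-fold higher, and the receptors Insr and Igf1r differed by 1.14 and 0.77. In the BMP pathway 4 of 18 tested genes were higher and 3 lower. Msx1 and Id1, which are targets of BMP signals, differed by 2.63 and 1.55, and the ligand Bmp7 by -0.82. Id2, another such target, was detected on no TBM array and was at least 1.33-fold lower in TBM. Among the ephrins, Efna1 and its receptor Epha1 were higher (1.44 and 1.25) and Efna5 was lower in TBM (-1.51). Without the block 0 of the 8 tested Eph receptors and ephrins were called, and 1 gene of the BMP pathway (higher) and 3 of the insulin-like growth factor axis (2 higher and 1 lower) were.

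Of 14 tested genes of glycolysis, a pathway known to be active in the tailbud, 5 were higher and 0 lower in TBM. All 14 differences were positive (median 0.39), against 3436 of the 7591 genes tested. Pgk1, the phosphoglycerate kinase, measured 11.16, 11.26 and 11.48 in TBM, against 10.30, 10.25 and 10.77 in PSM, a difference of 0.86. Its lowest TBM array lay above its highest PSM array. Eno3 (enolase), Slc2a3 (a glucose transporter), Aldoc and Aldoa (aldolases) differed by 1.00, 0.82, 0.95 and 0.69. Ldha (lactate dehydrogenase) differed by 0.40 and was not called. Without the block 1 of the 5 was called. Of 28 genes of oxidative phosphorylation 0 were called, with a median of -0.04, and of 27 genes of DNA replication and mitosis 1 was (E2f2, 0.61, with 1 of 2 probes called), with a median of 0.03. Of 15 tested cyclins, cell cycle inhibitors and related genes, 5 were higher and 1 lower in TBM, with a median of 0.05. Without the block 1 was called higher (Cdkn1a) and 1 lower (Gadd45g). Cdkn1a (p21), an inhibitor of cyclin-dependent kinases, measured 7.49, 7.59 and 7.67 in TBM, against 5.75, 5.66 and 5.56 in PSM (1.93, all 3 probes). The 3 arrays of each region were close together. Bbc3, which promotes cell death, differed by 1.47, and Gadd45g, a growth arrest gene, by -2.18. Bik, which also promotes cell death, was higher in TBM by at least 3.11-fold, and no PSM array detected it.

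**Figure D4:**
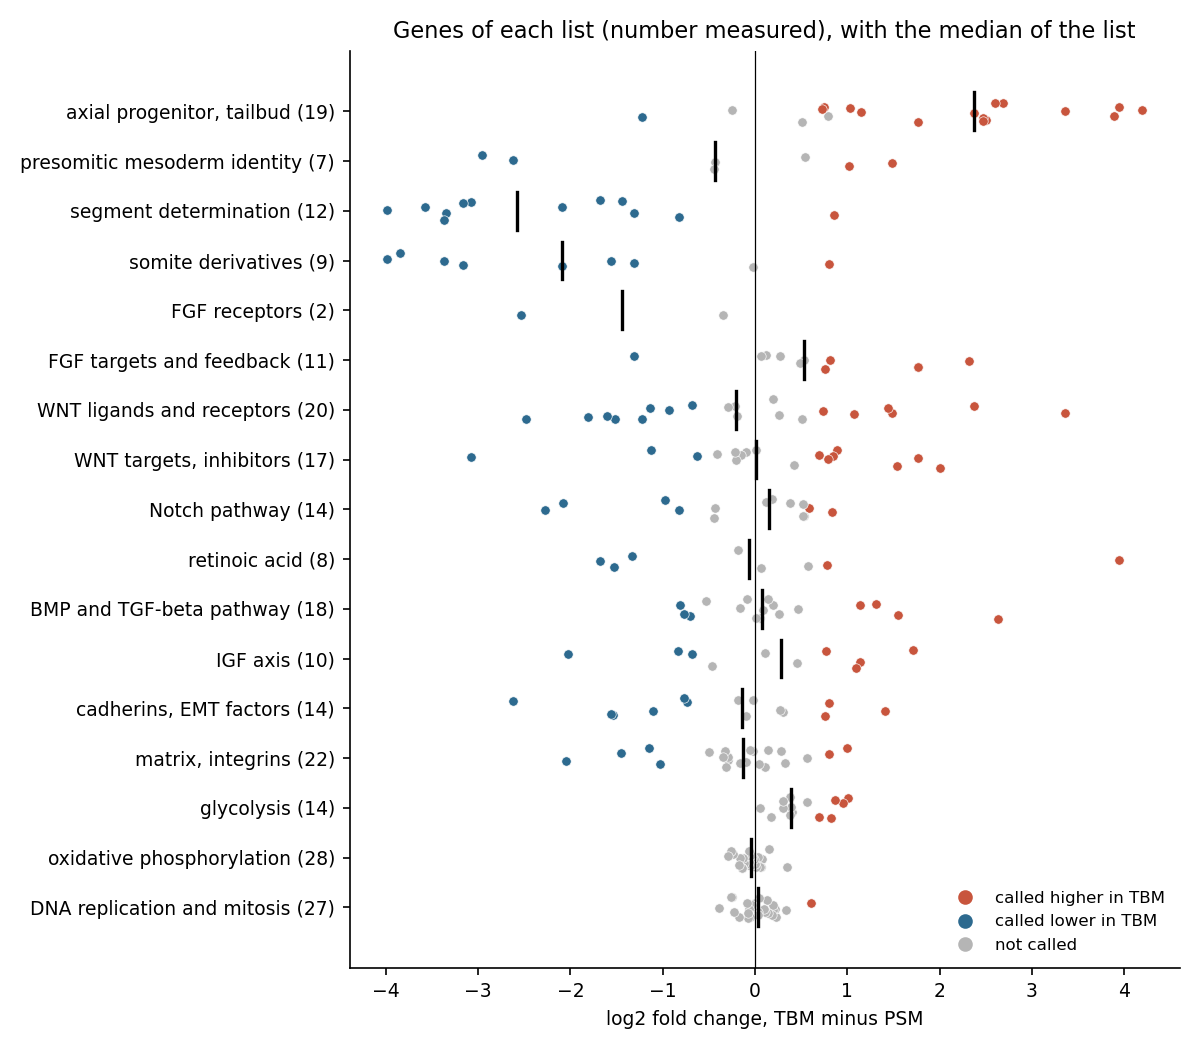
Each point is 1 tested gene of a list, at its log2 fold change (TBM minus PSM) on the x axis, red where called higher in TBM, blue where called lower and grey where not called, with the median of the list as a bar. The medians run from 2.37 for axial progenitor and tailbud factors to -2.58 for segment determination, and those of oxidative phosphorylation and DNA replication lie near 0.

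Factors of cell shape and matrix were mixed. Of 14 tested cadherins and factors of the epithelial to mesenchymal transition, 3 were higher and 6 lower in TBM. Snai1, the Snail factor, was higher (0.76) and its relative Snai2 lower (-1.54), and in the same way Twist2 differed by 0.80 and Twist1 by -1.56. Without the block 0 were called higher and 2 lower. Of 22 matrix and integrin genes 2 were higher and 4 lower (9.09% and 18.2%, against 6.03% and 4.65% of all genes). Among them were Lamc1, a laminin chain (0.99), and Col26a1, a collagen (-2.05). Without the block 1 was called higher and 2 lower. Fn1 (fibronectin) differed by -0.17 and was not called.

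Some of the largest changes belonged to none of these pathways. Of 17 alpha-defensins, antimicrobial peptides known from Paneth cells of the gut, 7 had a named probe and 4 were tested, and all 4 were higher in TBM. None of them was detected on all 6 arrays, so each passed the detection filter through TBM alone, which favours a higher value there. Defa31 measured 11.27, 11.25 and 11.59 in TBM, against 4.36, 4.56 and 6.29 in PSM, and its log2 fold change of 6.30 was the largest of all genes tested (both probes). It was detected on 1 PSM array. Defa3 and Defa26 were detected on no PSM array and were at least 10.6-fold and 7.21-fold higher in TBM. These genes are near-identical copies, so which of them the probes measured is uncertain. Hopx, a homeodomain protein that does not bind DNA, measured 10.04, 9.83 and 9.47 in TBM, against 5.83, 5.97 and 6.59 in PSM, 12.6-fold higher. Gpr83, a G protein-coupled receptor, was higher in TBM by 3.46 on the log2 scale and was detected on 1 PSM array. Others among the 20 largest were Scara5, a ferritin receptor (at least 5.03-fold), Cd40, a receptor of the TNF family (6.20-fold, all 3 probes), Lgals3, a galectin (at least 4.67-fold), Uap1l1 (6.45-fold), Klhl32 (6.75-fold), Adamtsl2 (6.28-fold) and C2cd4a (at least 4.89-fold). Among the 20 most negative were Ppp1r1a, an inhibitor of protein phosphatase 1 (-3.14), Pdzrn3, a ubiquitin ligase (-3.00), Gpx2, a glutathione peroxidase (-2.97), Rasgrp1, a Ras activator (at least 5.13-fold lower) and Ddit4l, an inhibitor of mTORC1 (-2.76). The probe of Ppp1r1a measured 7.21, 7.08 and 7.46 in TBM and 10.42, 10.65 and 10.10 in PSM, so that all 6 arrays kept the regions apart.

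A dissected piece holds cells besides mesoderm, and in pooled tissue fewer cells of a type and less RNA per cell cannot be told apart. Markers of surface ectoderm, the future skin, were lower in TBM. Of 15 such markers 10 were tested, 6 were lower and 0 higher, and the summed intensity of all 15 was 843 to 929 in TBM, against 1717 to 2341 in PSM. Krt14, a basal keratin, measured 5.65, 5.79 and 5.27 in TBM and 8.29, 8.20 and 8.30 in PSM (-2.70), and Trp63, the factor that specifies epidermis, differed by -2.52. Without the block 3 were called lower and 0 higher. The part of these cells in the WNT ligands that were lower in TBM was not tested. Markers of endothelium were higher in TBM, with a sum over 25 markers of 7514 to 9233 against 4521 to 5198 in PSM. Of 16 tested, 5 were higher and 0 lower, among them Etv2 (1.35) and Lmo2 (1.33), while Pecam1 differed by 0.38 and was not called. The calls of Esam, Emcn and Eng were each lost when any of 3 or 4 single arrays was left out, and the list held 2 calls without the block and 1 with the authors' normalized values. Flt4, Tie1, Erg, Fli1 and Adgrf5 were detected on none of the 6 arrays. Erythroid markers summed to 94736 to 99352 in TBM and to 77247 to 91827 in PSM over 13 markers, and 2 of 10 tested were called higher (1 without the block).

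Markers of the gut were divided. Cpn1, Elf3, Tmprss2, Krt19 and Foxa3 were higher and Krt18, Cdh1 and Cldn6 lower in TBM. Among the 5 tested markers detected on all 6 arrays, 1 was higher and 3 were lower. Without the block 3 markers of the list were called higher and 0 lower. The sum over 20 markers was 1376 to 1858 in TBM and 1341 to 2139 in PSM. Of the gut list, Foxa2, Epcam, Apob and Gata6 were detected on none of the 6 arrays. Foxa1 and Sox17 were each detected on 1 TBM array and 0 PSM arrays, and Cldn7 on 2 arrays of each region. Markers of notochord and floor plate summed to 1304 to 2506 in TBM and to 1437 to 3558 in PSM over 17 markers. Replicate 3 had the highest sum in both regions. Noto, Foxa2, Sox6 and Acan were undetected. Shh and Nog were each detected on 2 TBM arrays and 0 PSM arrays, and Foxj1 on 1 array of each region, so these were not tested. Of 9 tested, 2 were higher in TBM (Slit2, a guidance ligand, by 2.04, and Krt19, at least 2.42-fold) and 3 were lower (Sox9, which somite cartilage also expresses, by -1.76, Krt18 and Cav1). Without the block 2 were called higher and 0 lower. Of 7 neural crest markers with a probe 3 were tested, and their sum was 1212 to 1339 in TBM and 589 to 671 in PSM. The receptor Ngfr (1.99) was higher and Tfap2b lower (-1.18), and Sox10, Foxd3 and Erbb3 were detected on none of the 6 arrays. Of 24 neural tube markers 14 were detected on none of the arrays, among them Sox1, Pax6 and Olig2, and 0 of 3 tested were called. Of 18 markers of lateral plate and intermediate mesoderm 15 were detected on none, and 0 could be tested. Of 13 macrophage markers 6 were detected on none and 0 of 2 tested were called. Of 12 germ cell markers 6 were detected on none, and Ifitm3, which other cells also express, was lower in TBM (-1.05).

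**Figure D5:**
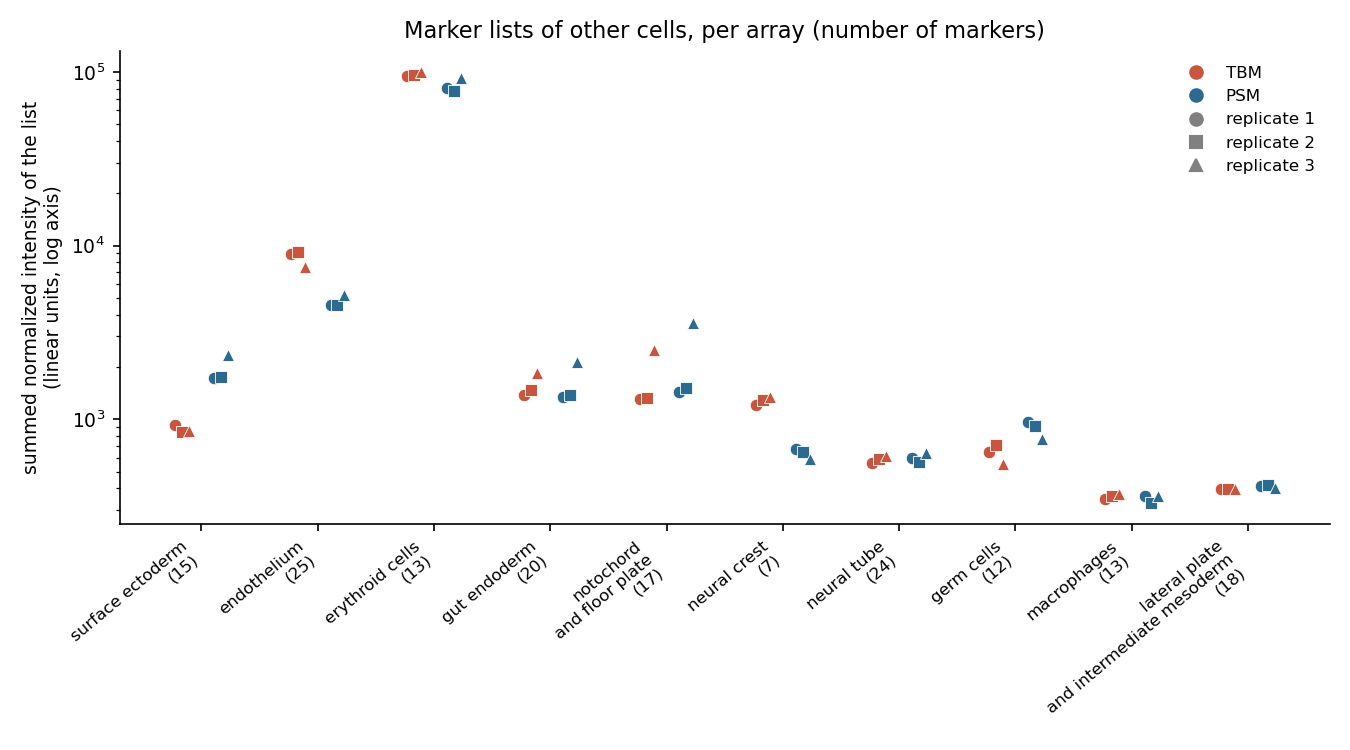
Summed normalized intensity of each marker list of other cells on each array, in linear units on a log axis, TBM in red and PSM in blue, with 1 symbol for each replicate number. Surface ectoderm markers sum to 843 to 929 on the TBM arrays and 1717 to 2341 on the PSM arrays, and endothelial markers to 7514 to 9233 and 4521 to 5198.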

How the data were processed

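The authors deposited a table of raw signal intensities, which they had neither normalized nor corrected for background, with a detection p-value beside each intensity. A second deposited table holds log2 values that the authors made with the VST and RSN methods of lumi, which served as an alternative. The genome build and annotation are not given in the sources used here.

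Intensities were background corrected by neqc (normexp with an offset of 16, the negative controls being read from the detection p-values), and quantile normalized over 9 arrays in R 4.3.3 with limma 3.58.1. The model held the region and the replicate number from the sample titles (4 residual degrees of freedom), and p-values were adjusted by Benjamini-Hochberg over 11995 probes. As a check of the pairing, values centred by region correlated at 0.874, 0.876 and 0.947 between TBM and PSM arrays of the same number. For numbers 1 and 2 the correlation across numbers was as high (0.873 to 0.882), so the block mainly takes up replicate 3. The fit was checked on simulated data.

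Of all probes, 34885 map to 1 gene, 18 to several and 10378 to none. Symbols were updated by Entrez number, except for 78 probes. The brightest probe stands for a gene. Genes named are the 20 largest changes each way and members of 37 gene lists. The members and lists were chosen with earlier results of these data known. Of 730 list genes, 362 were tested and 58 had no named probe. Where a region detected a gene on no array, its level was taken as the higher of its own value and the lowest detected value on that array, which gives an "at least" fold. Arrays carry no read depth, and their number limits the precision.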

Additional observations from a re-analysis of the deposited data

How the results depend on the processing

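No called gene among 210 named or held by the lists changed direction in any setting, and 62 kept their call in all of them. The count of called probes depended most on the values and on the block. With the deposited VST and RSN values 242 probes were called (138 higher and 104 lower in TBM), and 241 of these were among the 1158. Without background correction 615 were called (344 and 271), and with an offset of 50 the count was 749 (420 and 329). No replicate block gave 273 calls (126 higher and 147 lower, so that the higher ones made up 46.2%, against 56.5% with the block), all 273 among the 1158. With probes detected on all 6 TBM and PSM arrays, fewer probes were tested and 779 called (452 and 327). All other settings stayed within 1.5 times of the counts, including cyclic loess (1126), no filter (992), a random block (1126), and replicates 1 and 2 averaged as if 1 sample (1068). Leaving out 1 array or 1 replicate number gave 994 to 1297 calls (563 to 735 higher and 431 to 562 lower in TBM). Why the counts moved with the values and the block was not tested.

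Of the 210 genes, 101 kept their call with the VST and RSN values, 92 without the block and 163 without background correction. Some calls were lost when a single TBM or PSM array was left out, by leaving the fold limit or the p limit. These were Aldoc (0.74 without TBM replicate 3), Acta2 (-0.57 without PSM replicate 1) and Cdkn1c (0.51 without PSM replicate 3), and Fzd7, Krt18 and Hoxc11 without replicate 3 of either region (-0.54 to -0.48, -0.57 to -0.55 and 0.54 to 0.69). Sfrp1 lost its call without PSM replicate 2 or TBM replicate 3, and Zeb2 without PSM replicate 1 or TBM replicate 3. Calls were lost on leaving out, in turn, any of 3 of the 6 arrays for Psen2, Id2, Cdh1, E2f2, Cav1, Esam, Eng, Myl3 and Per1, of 4 for Etv5, Efnb1, Foxa3, Emcn and Per2, and of 5 for Papss2. A probe near background has only a bounded fold, and 43 higher and 49 lower genes were detected on no array of one region.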

Other observations

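The following gene groups were put together after their members' values had been seen, so their counts are descriptions. Of 20 circadian clock genes 10 were tested, and 5 were higher and 0 lower in TBM. Bhlhe40, a repressor in the clock loop, measured 6.83, 6.60 and 7.07 in TBM, against 4.39, 4.29 and 4.28 in PSM, where no array detected it, and was at least 3.75-fold higher in TBM (adjusted p = 4.02e-06). Rora, a nuclear receptor of the clock, differed by 1.20, the output gene Dbp by 0.73, and Per2 and Per1, which repress the clock's activators, by 0.83 and 0.60. For Per2 and for Per1, 1 of 2 tested probes was called. The call of Per1 was lost with the mean over its probes, and Per2 was detected on 1 PSM array. Clock itself differed by 0.03 and was not called. The time of day of each dissection is not given in the sources used here.

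Of 32 interferon response genes 11 were tested, and 7 were higher and 1 lower in TBM. Irf1, a transcription factor of the response, measured 8.66, 8.61 and 9.39 in TBM, against 6.65, 6.61 and 7.46 in PSM, a difference of 1.98 (adjusted p = 4.02e-06) that every replicate number showed. Irf2 differed by 1.10, and the antiviral genes Samd9l and Oasl2 were detected on no PSM array and were at least 2.84-fold and 2.02-fold higher in TBM. Ifitm3 was the one called lower (-1.05). Of the higher genes, only Irf1, Irf2 and H2-D1 were detected on every array of both regions. The others passed the detection filter through TBM alone.

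Genes of muscle and the cytoskeleton were called in both directions, more of them lower in TBM. Of 38 sarcomere, cytoskeleton and smooth muscle genes 18 were tested, and 10 were lower and 3 higher in TBM. Myl1, a myosin light chain, measured 6.64, 7.13 and 7.81 in TBM, against 9.93, 9.89 and 10.51 in PSM (-2.92, adjusted p = 2.44e-06). Myocd (-2.75), a co-activator of smooth and cardiac muscle genes, the intermediate filament gene Synm (-2.73), the myosin heavy chain Myh8 (-2.10) and the cardiac actin Actc1 (-1.62) were each detected on 1 TBM array and all 3 PSM arrays. Flnc (1.11), Tnnt1 (0.82) and Tpm1 (0.80) were the 3 called higher. These 3 were detected on every array of both regions, as were Myl1, Myom2 and Acta2 among the lower genes. The other lower genes passed the detection filter through PSM alone.

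Enzymes that build and sulphate glycosaminoglycans, the sugar chains that bind FGF and WNT ligands, were divided. Of 33 such genes 23 were tested, and 4 were higher and 6 lower in TBM. The sulphotransferases Hs3st1 (1.82) and Chst7 (1.72) were higher, while Chst15 (-2.21) and Hs3st3a1 (-1.76) were lower. Chst15 measured 5.78, 5.82 and 6.82 in TBM, against 8.17, 7.92 and 8.95 in PSM, with no overlap between the regions (adjusted p = 1.07e-06).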
